A study of Caenorhabditis elegans with 27 samples.

Results

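The heat shock genes of the cytosol were followed in whole Caenorhabditis elegans worms that were fed bacteria for RNA interference (RNAi) against mitochondrial and regulatory genes. They are 10 of the 46738 genes in the deposited count table and were taken by symbol. The inducible members are hsp-16.2, hsp-16.41 and hsp-16.48, which encode small heat shock proteins, and the Hsp70 genes hsp-70 and F44E5.4. The constitutive members are hsp-1, daf-21, hsp-110 and dnj-13, and the last member is hsf-1. All 10 passed the filter on low counts, but F44E5.4 did so only through worms labelled cco-1+atfs-1, where its 3 libraries alone reached 10 reads. Its values are therefore given as counts and it is left out of the counts of members called.

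In the cytosol, unfolding proteins are first bound by small heat shock proteins, which need no ATP, and are then refolded by Hsp70 with its J-domain partners and its nucleotide exchange factor Hsp110, or finished by Hsp90. In the worm the hsp-16 genes and hsp-70 are nearly silent without stress and are switched on by heat through the transcription factor HSF-1. The constitutive chaperones are abundant in most cells and rise less on heat. Mitochondria have their own chaperones, such as the Hsp70 of hsp-6, which answer to other regulators.

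Each of the 9 RNAi groups had 3 libraries of poly(A) RNA. The mixtures were cco-1+cbp-1 and mrps-5+cbp-1, with 50% of the mitochondrial clone, 25% of cbp-1 and 25% of empty vector, and cco-1+atfs-1 and mrps-5+atfs-1, with 50% of each clone. The cco-1 and mrps-5 groups received 50% of that clone and 50% of empty vector, and the cbp-1, atfs-1 and ev groups received a single clone whose share the labels do not give, ev being the empty vector. cco-1 encodes a subunit of cytochrome c oxidase, mrps-5 a small-subunit protein of mitochondrial ribosomes, cbp-1 a histone acetyltransferase of the CBP/p300 family, and atfs-1 a transcription factor of the mitochondrial stress response. All worms were of the N2 strain and, per the series design, carried an hsp-6::GFP reporter. They grew at 20 °C on HT115 bacteria from the egg and were harvested 2 days later, at the L4 or young adult stage. The labels do not say whether the 3 libraries of a group came from separate cultures, so p-values measure the spread between libraries, which may be technical. In whole-worm RNA, fewer cells of a type and less RNA per cell cannot be told apart.

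Gene counts summed to between 20672073 and 30938572 per library. The libraries fell into 2 sets on an axis made from the first library labelled atfs-1 and the other two, with the heat shock genes left out. Set 1 holds the 3 ev libraries, the 3 cbp-1 libraries and the first library labelled atfs-1, and set 2 holds the other 20 libraries. The comparisons of cco-1, mrps-5 and the group labelled atfs-1 with ev therefore cross sets, and each is given beside a fit with a term for the set. That term rests on the first library labelled atfs-1 against libraries 2 and 3 of that label. The set-term values of cco-1 and mrps-5 against ev thus also hang on that first library. For the group labelled atfs-1 against ev, and so within its interactions, that fit compares its first library alone with ev. Every mixture and its mitochondrial clone lie in set 2, and cbp-1 and ev lie in set 1. The read count of the targeted gene averaged 169 ± 1.87 CPM (read counts scaled to library size; mean ± SD, n = 3) in cco-1 worms, against 302 ± 8.62 in ev worms. Its log2 change was -0.83 ± 0.12 (edgeR adjusted p = 9.34e-06), and with the set term -0.16, which was not called (edgeR adjusted p = 0.149). Against libraries 2 and 3 labelled atfs-1, in the same set, it was -0.20 ± 0.05 (edgeR adjusted p = 0.00165). Reads of the cco-1 gene also changed without its own clone, by -0.45 ± 0.12 in cbp-1 worms against ev worms (edgeR adjusted p = 0.00262). In mrps-5 worms against ev worms they changed by -0.49 ± 0.12, and by 0.18 with the set term, which was not called. Adding the cbp-1 clone to cco-1 changed them by a further -0.55 ± 0.12 (edgeR adjusted p = 0.000693). The targeted gene averaged 83.2 ± 3.44 CPM in mrps-5 worms, against 105 ± 3.59 in ev worms, a change of -0.33 ± 0.04 that was called with the term too (-0.32), and 208 ± 2.23 CPM in cbp-1 worms, against 269 ± 10.5 in ev worms. The cbp-1 read count averaged 276 ± 1.59 CPM in cco-1+cbp-1 worms, against 325 ± 8.45 in cco-1 worms. It averaged 275 ± 9.04 CPM in mrps-5+cbp-1 worms, against 321 ± 5.96 in mrps-5 worms. In worms labelled atfs-1 the atfs-1 read count averaged 90.5 ± 4.05 CPM, against 77.7 ± 1.06 CPM in ev worms, so it was not lower. Its log2 change there was 0.22 ± 0.04, and 0.15 with the set term. The atfs-1 count was 113 ± 4.74 CPM in worms labelled cco-1+atfs-1, against 99.1 ± 0.736 CPM in cco-1 worms. Groups that hold this clone are named as labelled, since that count was not lower. Reads of an RNAi clone and of the gene it targets cannot be told apart here. These counts therefore do not show whether a clone worked.

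The 10 genes span a wide range of levels. Per kilobase of exon, hsp-1 averaged 2005 CPM and daf-21 averaged 1931 CPM in worms labelled cco-1+atfs-1, and 2124 and 1789 CPM in ev worms. On the same scale hsp-16.2 averaged 310.1 CPM per kilobase, hsp-16.41 averaged 402 and hsp-70 averaged 58.4 in worms labelled cco-1+atfs-1. In ev worms these 3 genes averaged 1.63, 1.60 and 0.859 CPM per kilobase. The inducible genes were thus near the floor in ev worms and stayed below hsp-1 and daf-21 even where they were highest. Between the highest and the lowest group mean, the CPM ratio was 190.4 for hsp-16.2, 262 for hsp-16.41, 76.1 for hsp-70 and 32.5 for hsp-16.48. For the constitutive genes and hsf-1 that ratio lay between 1.30 for dnj-13 and 1.59 for hsp-110.

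Adding the clone labelled atfs-1 to either mitochondrial clone went with the highest levels of the inducible genes in the study. hsp-16.2, a small heat shock protein widely used as a worm stress reporter, had 182, 176 and 179.7 CPM in worms labelled cco-1+atfs-1, against 16.6, 13.8 and 15.3 CPM in cco-1 worms. In worms labelled mrps-5+atfs-1 it had 78.1, 89.3 and 84.6 CPM, against 1.58, 1.67 and 1.52 CPM in mrps-5 worms. The libraries of each pair of groups did not overlap. hsp-16.2 rose 11.8-fold in the cco-1 arm, a log2 change of 3.56 ± 0.06 (± standard error, 3 libraries per group; edgeR quasi-likelihood test, Benjamini-Hochberg adjusted p = 3.25e-36). It rose 52.8-fold in the mrps-5 arm, a log2 change of 5.72 ± 0.09 (edgeR adjusted p = 3.34e-37).

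hsp-16.41 lies head to head with hsp-16.2 on chromosome V, with 220 bases between them. On WBcel235, the build named in the submitters' processing notes and used by the reference annotation, hsp-16.2 spans V:1804334-1804957 on the minus strand and hsp-16.41 spans V:1805178-1805875 on the plus strand. Both are protein-coding genes with 2 exons. hsp-16.41 had 262, 257 and 252 CPM in worms labelled cco-1+atfs-1, against 12.4, 12.22 and 10.6 CPM in cco-1 worms. It had 89.2, 101 and 102 CPM in worms labelled mrps-5+atfs-1, against 1.36, 1.76 and 1.39 CPM in mrps-5 worms. As for its neighbour, no library of a mixture overlapped those of its mitochondrial clone. The log2 changes were 4.46 ± 0.07 in the cco-1 arm (edgeR adjusted p = 4.2e-34) and 6.03 ± 0.10 in the mrps-5 arm (edgeR adjusted p = 7.29e-33). Among all 16435 genes tested, hsp-16.41 had the highest log2 change in the mrps-5 arm and ranked 2 in the cco-1 arm, and hsp-16.2 ranked 2 and 10.

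hsp-16.48 lies elsewhere on chromosome V, at V:9088131-9088617. Its near-identical copy hsp-16.49 lies 662 bases away, and hsp-16.1 and hsp-16.11 lie beside them. The copies had at most 3, 1 and 1 reads in any library for hsp-16.1, hsp-16.11 and hsp-16.49, and the level of hsp-16.48 is uncertain, since reads shared by copies may have been left out or assigned to 1 of them. hsp-16.48 had 64.9, 64.5 and 61.9 CPM in worms labelled cco-1+atfs-1, against 5.93, 4.57 and 5.38 CPM in cco-1 worms. It had 26.1, 30.3 and 31.3 CPM in worms labelled mrps-5+atfs-1, against 1.86, 1.80 and 2.21 CPM in mrps-5 worms. It rose in both arms, by log2 changes of 3.59 ± 0.09 and 3.90 ± 0.12 (edgeR adjusted p = 1.89e-29 and 1.72e-26).

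**Figure D1:**
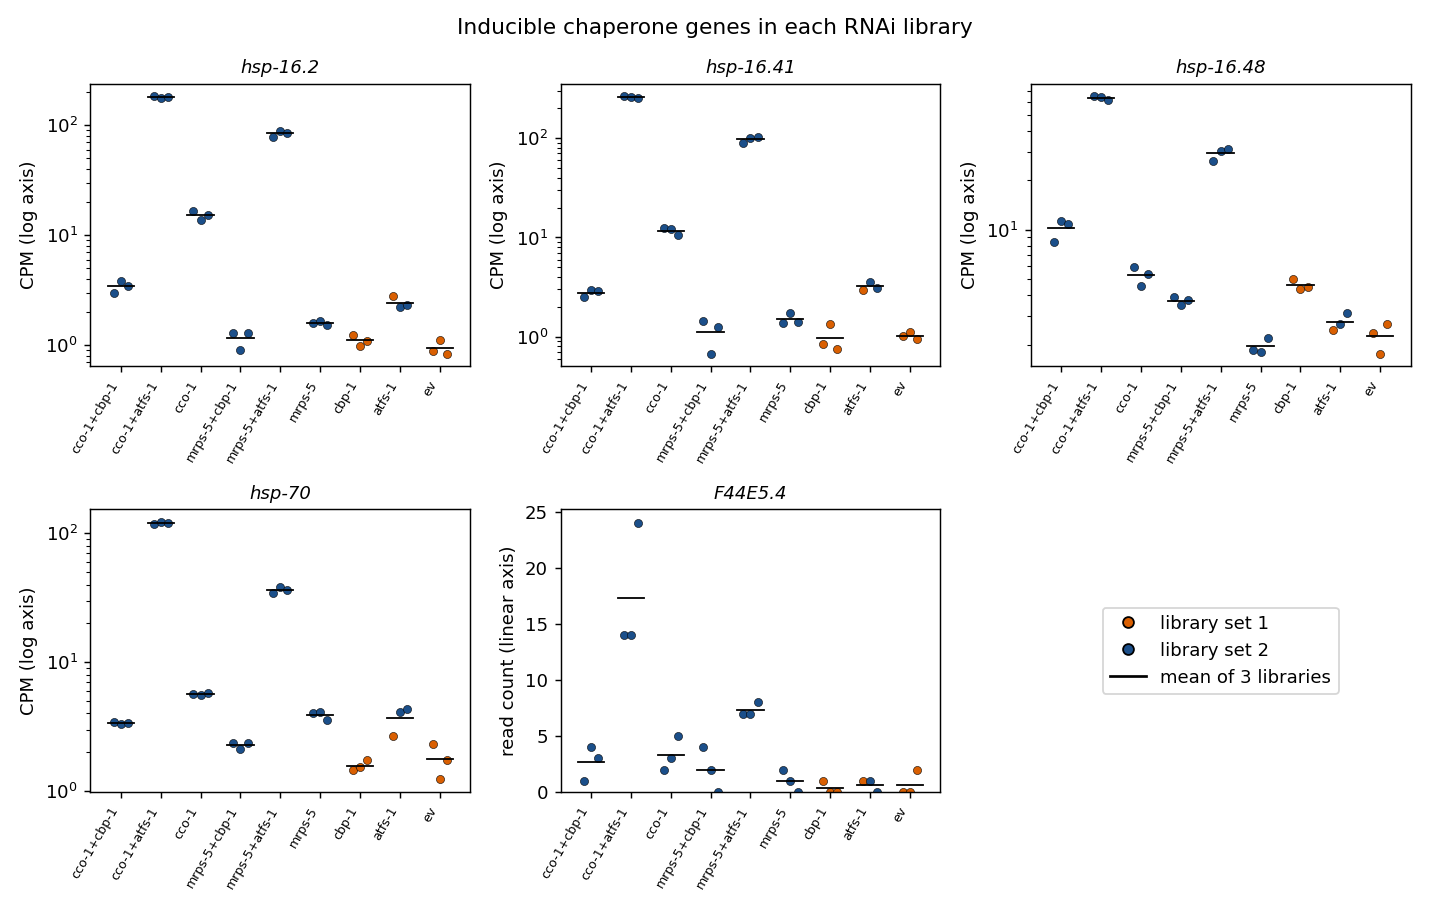
Level of the 5 inducible chaperone genes in each of 27 libraries, as CPM on a log axis for 4 genes and as read counts on a linear axis for F44E5.4, with RNAi groups along the horizontal axis. Points are libraries, coloured by library set, and lines are the means of 3 libraries. The libraries labelled cco-1+atfs-1 are the highest in each panel and those labelled mrps-5+atfs-1 come next, for example 176 to 182 CPM and 78.1 to 89.3 CPM for hsp-16.2.

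hsp-70, at I:9320325-9322519, encodes an Hsp70 that is induced by heat. It had 119, 122 and 120.0 CPM in worms labelled cco-1+atfs-1, against 5.66, 5.56 and 5.77 CPM in cco-1 worms, a log2 change of 4.41 ± 0.08 (edgeR adjusted p = 1.38e-35). It had 34.1, 37.9 and 36.4 CPM in worms labelled mrps-5+atfs-1, against 4.02, 4.12 and 3.57 CPM in mrps-5 worms, a log2 change of 3.21 ± 0.09 (edgeR adjusted p = 3.37e-28). The groups did not overlap in either arm. The gene overlaps uggt-2, which runs on the other strand, with no shared exon bases. F44E5.4, a further Hsp70 gene at II:11757107-11759311, had 14, 14 and 24 reads in worms labelled cco-1+atfs-1, against 2, 3 and 5 reads in cco-1 worms. It had 7, 7 and 8 reads in worms labelled mrps-5+atfs-1, against 2, 1 and 0 reads in mrps-5 worms. The neighbouring copy F44E5.5 lies 350 bases away, and reads shared by both may have been left out.

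Over the 9 members other than F44E5.4, 8 rose and 0 fell in worms labelled cco-1+atfs-1 against cco-1 worms, where 8.97% of all genes tested were called higher and 20.4% were called in either direction. The same 8 of 9 rose and 0 fell in worms labelled mrps-5+atfs-1 against mrps-5 worms, where 6.85% of all genes were called higher and 16.8% in either direction. The member without a call in both arms was hsf-1. The median log2 change of the 4 inducible genes was 3.996 in the cco-1 arm and 4.81 in the mrps-5 arm, against 0.00 and 0.01 over all genes.

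In the cco-1 background the cbp-1 clone went with the opposite direction for most members. hsp-16.2 had 3.002, 3.86 and 3.48 CPM in cco-1+cbp-1 worms, against the 16.6, 13.8 and 15.3 CPM of cco-1 worms, with no overlap. That fall was -2.14 ± 0.09 on the log2 scale (edgeR adjusted p = 4.98e-23). hsp-16.41 had 2.51, 2.97 and 2.88 CPM in cco-1+cbp-1 worms, against 12.4, 12.22 and 10.6 CPM in cco-1 worms, a fall of -2.07 ± 0.11 (edgeR adjusted p = 5.03e-18). hsp-70 had 3.46, 3.30 and 3.35 CPM in cco-1+cbp-1 worms, against 5.66, 5.56 and 5.77 CPM in cco-1 worms, a fall of -0.75 ± 0.12 (edgeR adjusted p = 9.33e-07). All 3 genes fell, and in each the 2 groups of libraries stood apart.

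hsp-16.48 went the other way. It had 8.46, 11.3 and 10.9 CPM in cco-1+cbp-1 worms, against 5.93, 4.57 and 5.38 CPM in cco-1 worms, a rise of 0.94 ± 0.11 (edgeR adjusted p = 1.03e-09). It had 3.93, 3.47 and 3.74 CPM in mrps-5+cbp-1 worms, against 1.86, 1.80 and 2.21 CPM in mrps-5 worms, a rise of 0.92 ± 0.17 (edgeR adjusted p = 1.85e-05). It also rose by 1.03 ± 0.15 in cbp-1 worms, with 5.01, 4.36 and 4.502 CPM against 2.35, 1.77 and 2.67 CPM in ev worms (edgeR adjusted p = 1.9e-07). hsp-16.48 thus rose with the cbp-1 clone in all 3 backgrounds, each time with no overlap between the groups, while hsp-16.2 and hsp-16.41 fell in the cco-1 background. Interaction terms for hsp-16.48 did not pass the test, at -0.08 (95% interval -0.45 to 0.28) with cco-1 and -0.11 (-0.56 to 0.34) with mrps-5.

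In the mrps-5 background, hsp-70 fell with the cbp-1 clone, to 2.36, 2.11 and 2.36 CPM in mrps-5+cbp-1 worms, against 4.02, 4.12 and 3.57 CPM in mrps-5 worms. Its log2 change was -0.78 ± 0.15 (edgeR adjusted p = 2.78e-05). hsp-16.2 had 1.30, 0.905 and 1.29 CPM in mrps-5+cbp-1 worms, against 1.58, 1.67 and 1.52 CPM in mrps-5 worms, and its change of -0.45 ± 0.20 missed the threshold (edgeR adjusted p = 0.0575), which it passed with the stricter filter on low counts (edgeR adjusted p = 0.0493). For hsp-16.41 the change was -0.42 ± 0.23 (edgeR adjusted p = 0.144). In mrps-5 worms hsp-16.2 averaged 1.59 ± 0.0754 CPM, against 0.942 ± 0.148 CPM in ev worms (SD, n = 3).

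In cbp-1 worms against ev worms, hsp-16.2 had 1.25, 0.986 and 1.08 CPM, against 0.875, 1.11 and 0.839 CPM, and the 2 groups overlapped. Its log2 change was 0.25 (95% interval -0.17 to 0.66; edgeR adjusted p = 0.337). Changes of hsp-16.41 and hsp-70 were -0.07 (-0.55 to 0.41) and -0.19 (-0.55 to 0.17), and neither passed the test. For hsp-16.2, the cbp-1 effect under cco-1 RNAi minus that of cbp-1 alone was -2.39 ± 0.23 on the log2 scale (interaction term, edgeR adjusted p = 9.57e-11). For hsp-16.41 that difference was -1.998 ± 0.27 (edgeR adjusted p = 5.03e-07). The interaction of mrps-5 and cbp-1 was -0.70 ± 0.29 for hsp-16.2 (edgeR adjusted p = 0.0737) and -0.35 ± 0.33 for hsp-16.41 (edgeR adjusted p = 0.498).

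Over the 9 members other than F44E5.4, 1 rose and 7 fell in cco-1+cbp-1 worms, against a background of 47.2% of genes called. In mrps-5+cbp-1 worms 1 rose and 5 fell, with 42.8% of all genes called. In cbp-1 worms against ev worms 1 rose and 4 fell, with 58.7% of all genes called. With so many genes called, the count in cbp-1 worms is near the background. In the interaction term of cbp-1 with cco-1, 2 members were called and 24.9% of all genes, and in that of mrps-5 and cbp-1 only hsp-110 was called, at 0.16 ± 0.06, with 23.6% of all genes. That call was lost in 11 of 12 fits that left out 1 library, with an adjusted p up to 0.129. With the set term hsf-1 was also called higher in cco-1+cbp-1, mrps-5+cbp-1 and cbp-1 worms, each against its own control, by 0.10, 0.12 and 0.07 (51.9%, 47.5% and 62.7% of all genes called). hsp-70 was then called in both interactions, at -0.56 ± 0.20 with cco-1 and -0.59 ± 0.21 with mrps-5 (edgeR adjusted p = 0.0248 and 0.0312; 30.2% and 29.2% of all genes called).

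**Figure D2:**
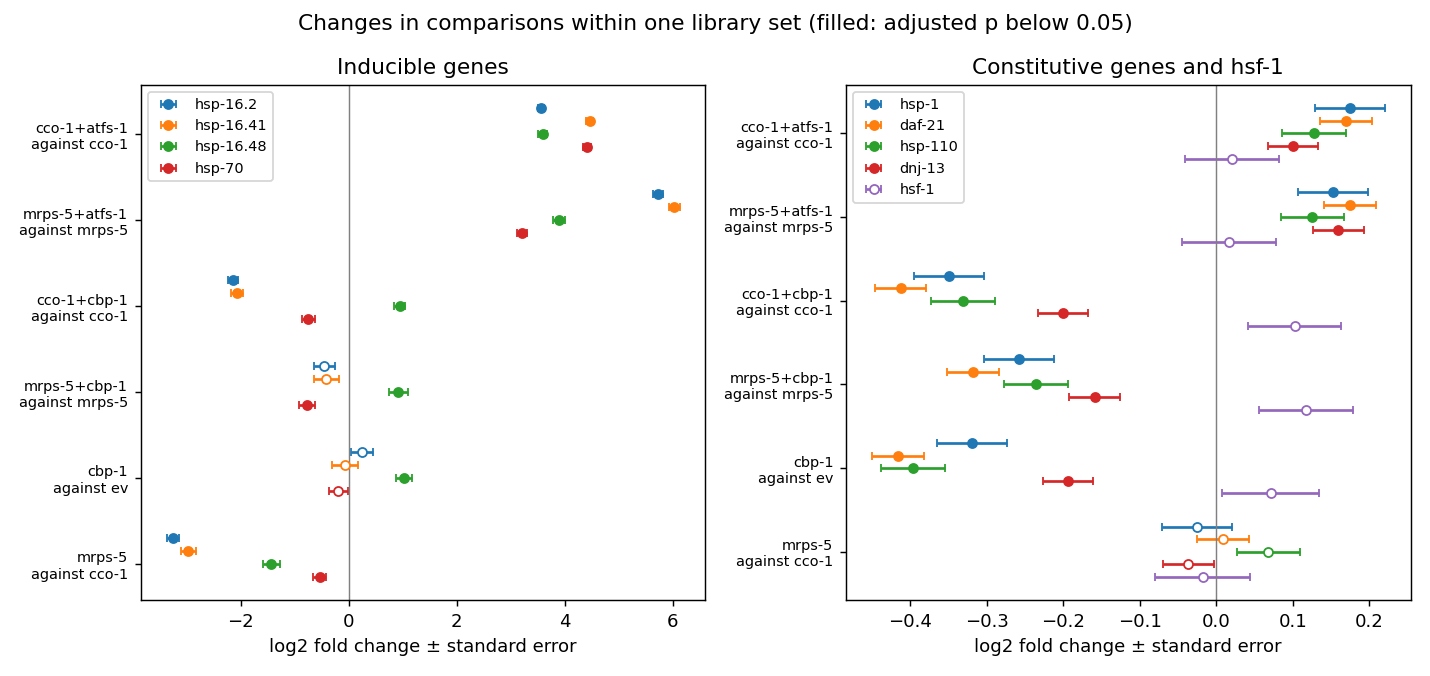
Log2 fold change with its standard error for 4 inducible genes (left) and for the constitutive genes and hsf-1 (right) in 6 comparisons that lie within a library set, 3 libraries per group. Filled points passed the test at an adjusted p below 0.05. The inducible genes lie between 3.21 and 6.03 where the clone labelled atfs-1 was added, and hsp-16.48 is called higher in each of the 3 comparisons of the cbp-1 clone.

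The mixtures themselves differed in both arms. In cco-1+cbp-1 worms against worms labelled cco-1+atfs-1, hsp-16.2 differed by -5.70 ± 0.07, hsp-16.41 by -6.53 ± 0.08, hsp-70 by -5.15 ± 0.08 and hsp-16.48 by -2.64 ± 0.08 on the log2 scale (edgeR adjusted p at most 1.47e-27). In mrps-5+cbp-1 worms against worms labelled mrps-5+atfs-1 the differences of these genes, in the same order, were -6.18 ± 0.09, -6.44 ± 0.10, -3.99 ± 0.10 and -2.98 ± 0.10 (edgeR adjusted p at most 3.89e-25). Of the 9 members other than F44E5.4, 8 were lower and 0 higher in each arm, while 44.5% and 44.6% of all genes were called. hsf-1 was again the member without a call. With the set term it was called higher, by 0.08 ± 0.03 in the cco-1 arm and 0.10 ± 0.03 in the mrps-5 arm (edgeR adjusted p = 0.0170 and 0.00369; 49.1% and 49.3% of all genes called). The 2 kinds of mixture also held unequal shares of the second clone, at 25% and 50%.

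Among the single clones, the inducible genes had their highest means in cco-1 worms, although for hsp-16.48 the libraries overlapped those of cbp-1 worms. hsp-16.2 had the 16.6, 13.8 and 15.3 CPM given above in cco-1 worms, against 0.875, 1.11 and 0.839 CPM in ev worms, a log2 change of 4.02 ± 0.12 (edgeR adjusted p = 3.28e-27). With the term for the library set it was 4.31 ± 0.30 (edgeR adjusted p = 4.4e-19). hsp-16.41 changed by 3.51 ± 0.14 without the term and 3.33 ± 0.32 with it, hsp-16.48 by 1.22 ± 0.15 and 0.99 ± 0.31, and hsp-70 by 1.66 ± 0.14 and 1.01 ± 0.24. All 4 were called higher in both fits. Against the 2 libraries labelled atfs-1 in the same set, the changes in cco-1 worms were 2.74 ± 0.12 for hsp-16.2, 1.80 ± 0.13 for hsp-16.41, 0.88 ± 0.16 for hsp-16.48 and 0.42 ± 0.12 for hsp-70, all called higher (30.8% of all genes called). The hsp-70 call was lost without atfs-1 replicate 2 (edgeR adjusted p = 0.0646). In all, 5 members were called higher and 2 lower against ev, with 45.3% of all genes called. With the set term 4 were higher and 1 lower, where 6.89% of all genes were called higher and 9.48% lower. The yolk genes moved too, with all 6 lower in cco-1 worms in both fits and summed levels of 28113 to 30921 CPM in cco-1 worms, against 79205 to 82262 CPM in ev worms. The part of that shift in the changes of the heat shock genes was not tested.

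In mrps-5 worms these genes were lower than in cco-1 worms. hsp-16.2 differed by -3.26 ± 0.11 in mrps-5 worms against cco-1 worms, hsp-16.41 by -2.97 ± 0.13, hsp-16.48 by -1.43 ± 0.16 and hsp-70 by -0.54 ± 0.12. All 4 were called lower (edgeR adjusted p at most 0.00109), while 5.02% of all genes were called lower and 11.8% in either direction. Against ev worms, mrps-5 worms had hsp-16.2 higher by 0.76 ± 0.20 (edgeR adjusted p = 0.00273), and by 1.04 ± 0.31 with the set term (edgeR adjusted p = 0.0187). hsp-70 was higher by 1.12 ± 0.15 in mrps-5 worms against ev worms (edgeR adjusted p = 2.25e-07). That call was lost with the set term, at 0.47 ± 0.25 (edgeR adjusted p = 0.267). hsp-16.41 changed by 0.54 (95% interval 0.09 to 0.99) and hsp-16.48 by -0.22 (-0.58 to 0.15), and neither was called. With DESeq2 hsp-16.41 was called (adjusted p = 0.0411). Against libraries 2 and 3 labelled atfs-1, in the same set, 0 members were higher and 5 lower in mrps-5 worms (20.2% of all genes called), with hsp-16.2 at -0.52 ± 0.19 and hsp-16.41 at -1.16 ± 0.21. Leaving out 1 library ended the hsp-16.2 call in 5 of 5 fits, with an adjusted p up to 0.184, and left 1 to 4 of the 5 calls, the fewest without atfs-1 replicate 2. Against ev, 4 members were called higher and 2 lower, with 37.9% of all genes called, and with the set term 1 was higher and 1 lower, with 9.75% of all genes called.

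In worms on the single clone labelled atfs-1, hsp-16.2 and hsp-16.41 were higher than in ev worms. hsp-16.2 had 2.77, 2.24 and 2.31 CPM in worms labelled atfs-1, against 0.875, 1.11 and 0.839 CPM in ev worms, and hsp-16.41 had 2.96, 3.59 and 3.08 CPM against 1.02, 1.11 and 0.953 CPM. No libraries of the 2 groups overlapped for either gene, including the first library labelled atfs-1, which lies in the same set as ev. Log2 changes were 1.38 ± 0.18 for hsp-16.2 and 1.65 ± 0.19 for hsp-16.41. With the set term they were 1.56 and 1.53, but these values rest on the first library labelled atfs-1 alone against ev. Without the term 5 members were called higher and 1 lower, with 10.8% of all genes called. Of these, hsp-70 had 2.70 CPM in the first library labelled atfs-1 and 4.13 and 4.32 CPM in the other two, against 2.31, 1.23 and 1.75 CPM in ev worms. hsp-70 was not called with the set term, at 0.59.

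**Figure D3:**
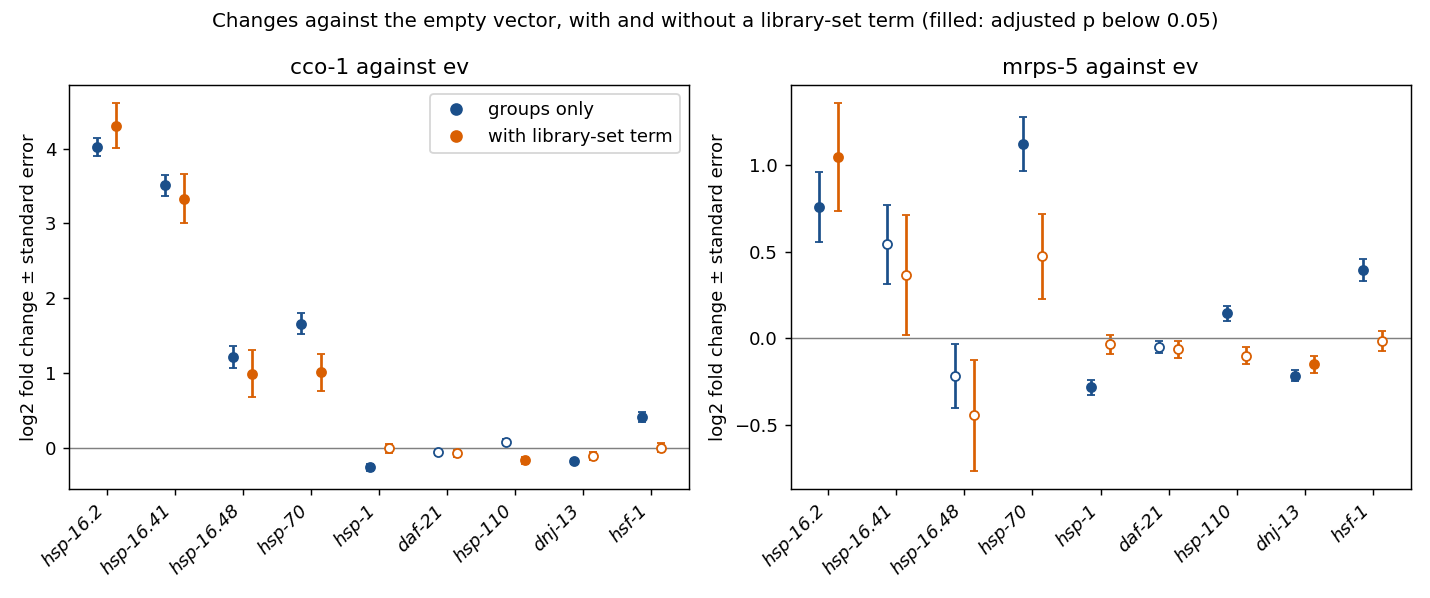
Log2 fold change with its standard error in cco-1 worms (left) and mrps-5 worms (right) against ev worms for 9 of the genes, from the fit on groups (blue) and with a term for the library set (orange). Filled points passed the test at an adjusted p below 0.05. hsp-16.2 stays called in both panels, at 4.31 and 1.04 with the term, while hsf-1 moves to 0.00 and -0.02.

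The rise in the mixtures labelled with atfs-1 was larger than the sum of the single-clone changes on the log2 scale, in tests added after the values had been seen. The labels do not say whether the single clone labelled atfs-1 was diluted as in the mixtures. The interaction of cco-1 and the clone labelled atfs-1 was 2.17 ± 0.22 for hsp-16.2, 2.81 ± 0.25 for hsp-16.41, 3.32 ± 0.21 for hsp-16.48 and 3.36 ± 0.20 for hsp-70 (edgeR adjusted p at most 5.36e-10). With the set term these were 1.99, 2.93, 3.47 and 3.82, all called. The interaction with mrps-5 was 4.34 ± 0.26, 4.38 ± 0.29, 3.63 ± 0.23 and 2.17 ± 0.20 for the same genes (edgeR adjusted p at most 5.02e-11), and 4.16, 4.496, 3.78 and 2.63 with the term, all called. Of all genes, 17% were called in the first interaction and 13.7% in the second, and 11.1% and 7.88% with the term. Within set 2, worms labelled cco-1+atfs-1 exceeded the 2 libraries labelled atfs-1 by 6.30 ± 0.08 for hsp-16.2, 6.26 ± 0.09 for hsp-16.41, 4.46 ± 0.11 for hsp-16.48 and 4.83 ± 0.07 for hsp-70 (30.8% of all genes called). For worms labelled mrps-5+atfs-1 these values were 5.21 ± 0.09, 4.86 ± 0.09, 3.34 ± 0.12 and 3.10 ± 0.09 (20.5% of all genes called).

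The 2 arms differed for 3 inducible genes. For the clone labelled atfs-1, the log2 change in the cco-1 arm minus that in the mrps-5 arm was -2.17 ± 0.13 for hsp-16.2, -1.57 ± 0.16 for hsp-16.41 and 1.19 ± 0.14 for hsp-70 (edgeR adjusted p at most 4.49e-09 for the hsp-16 genes and 3.57e-08 for hsp-70). For hsp-16.48 the difference was -0.31 (95% interval -0.65 to 0.03; edgeR adjusted p = 0.609). With 3.49% of all genes called, 1 member was higher and 2 lower. For the cbp-1 clone that difference was -1.69 ± 0.22 for hsp-16.2 and -1.65 ± 0.26 for hsp-16.41 (edgeR adjusted p = 6.11e-07 and 3.18e-05), with 5.49% of all genes called. In mrps-5 worms hsp-16.2 and hsp-16.41 averaged 1.59 and 1.50 CPM, against 15.2 and 11.7 CPM in cco-1 worms. The part of these starting levels in the differences was not tested.

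The constitutive chaperones moved by small steps, and all 4 rose in the mixtures labelled with atfs-1 and fell with the cbp-1 clone. hsp-1, the main cytosolic Hsp70 of unstressed cells, had 4213, 4149 and 4111 CPM in worms labelled cco-1+atfs-1, against 3659.9, 3615 and 3778 CPM in cco-1 worms. Its log2 change was 0.17 ± 0.05 (edgeR adjusted p = 0.00415). daf-21, which encodes Hsp90, had 4598, 4568 and 4499 CPM in worms labelled cco-1+atfs-1, against 4056, 4081 and 4009 CPM in cco-1 worms, a log2 change of 0.17 ± 0.03 (edgeR adjusted p = 0.000149). hsp-110, which encodes the Hsp110 exchange factor, changed by 0.13 ± 0.04 (edgeR adjusted p = 0.0234). The J-domain gene dnj-13 changed by 0.10 ± 0.03 (edgeR adjusted p = 0.0236). The groups did not overlap for any of the 4. The hsp-110 call was lost in 5 of 6 fits that left out 1 library, with an adjusted p up to 0.109, and the dnj-13 call in 4 of 6, with an adjusted p up to 0.120.

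In worms labelled mrps-5+atfs-1 against mrps-5 worms the same 4 genes rose by 0.15 ± 0.05 for hsp-1, 0.17 ± 0.03 for daf-21, 0.13 ± 0.04 for hsp-110 and 0.16 ± 0.03 for dnj-13 (edgeR adjusted p at most 0.0303). Leaving out 1 library ended the hsp-110 call in 6 of 6 fits, with an adjusted p up to 0.127, and the hsp-1 call in 3 of 6, with an adjusted p up to 0.0976. hsp-1 averaged 2891 ± 36.9 CPM in cco-1+cbp-1 worms (SD, n = 3), against 3684 ± 84.1 CPM in cco-1 worms, a log2 change of -0.35 ± 0.05 (edgeR adjusted p = 2.74e-08). daf-21 averaged 3042 ± 40.2 CPM in cco-1+cbp-1 worms, against 4049 ± 36.6 CPM in cco-1 worms, a log2 change of -0.41 ± 0.03 (edgeR adjusted p = 1.56e-13). hsp-110 and dnj-13 changed by -0.33 ± 0.04 and -0.20 ± 0.03 in the same comparison, both called lower.

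Similar falls were seen in mrps-5+cbp-1 worms against mrps-5 worms, from -0.16 ± 0.03 for dnj-13 to -0.32 ± 0.03 for daf-21. In cbp-1 worms against ev worms they ran from -0.19 ± 0.03 for dnj-13 to -0.42 ± 0.03 for daf-21. daf-21 had 3242, 3098 and 3149 CPM in cbp-1 worms, against 4174, 4289 and 4199.7 CPM in ev worms. In contrast to hsp-16.2, the cbp-1 effect on hsp-1, daf-21 and dnj-13 did not pass the test of interaction with cco-1. Those terms were -0.03 (95% interval -0.16 to 0.10), 0.00 (-0.09 to 0.10) and -0.01 (-0.10 to 0.08).

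Against ev, the constitutive genes changed in ways that the set term altered. hsp-1 changed by -0.26 ± 0.05 in cco-1 worms (edgeR adjusted p = 1.51e-05) and by -0.01 ± 0.05 with the term (edgeR adjusted p = 0.952). hsp-110 changed by 0.08 ± 0.04 in cco-1 worms (edgeR adjusted p = 0.135) and by -0.17 ± 0.05 with the term (edgeR adjusted p = 0.0105). dnj-13 changed by -0.18 ± 0.03 and, with the term, by -0.11 ± 0.05. daf-21 was not called in either fit, at -0.06 ± 0.03 and -0.07 ± 0.05. In the group labelled atfs-1 itself, hsp-1 had 4433 CPM in the first library and 3757 and 3706 CPM in the other two.

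**Figure D4:**
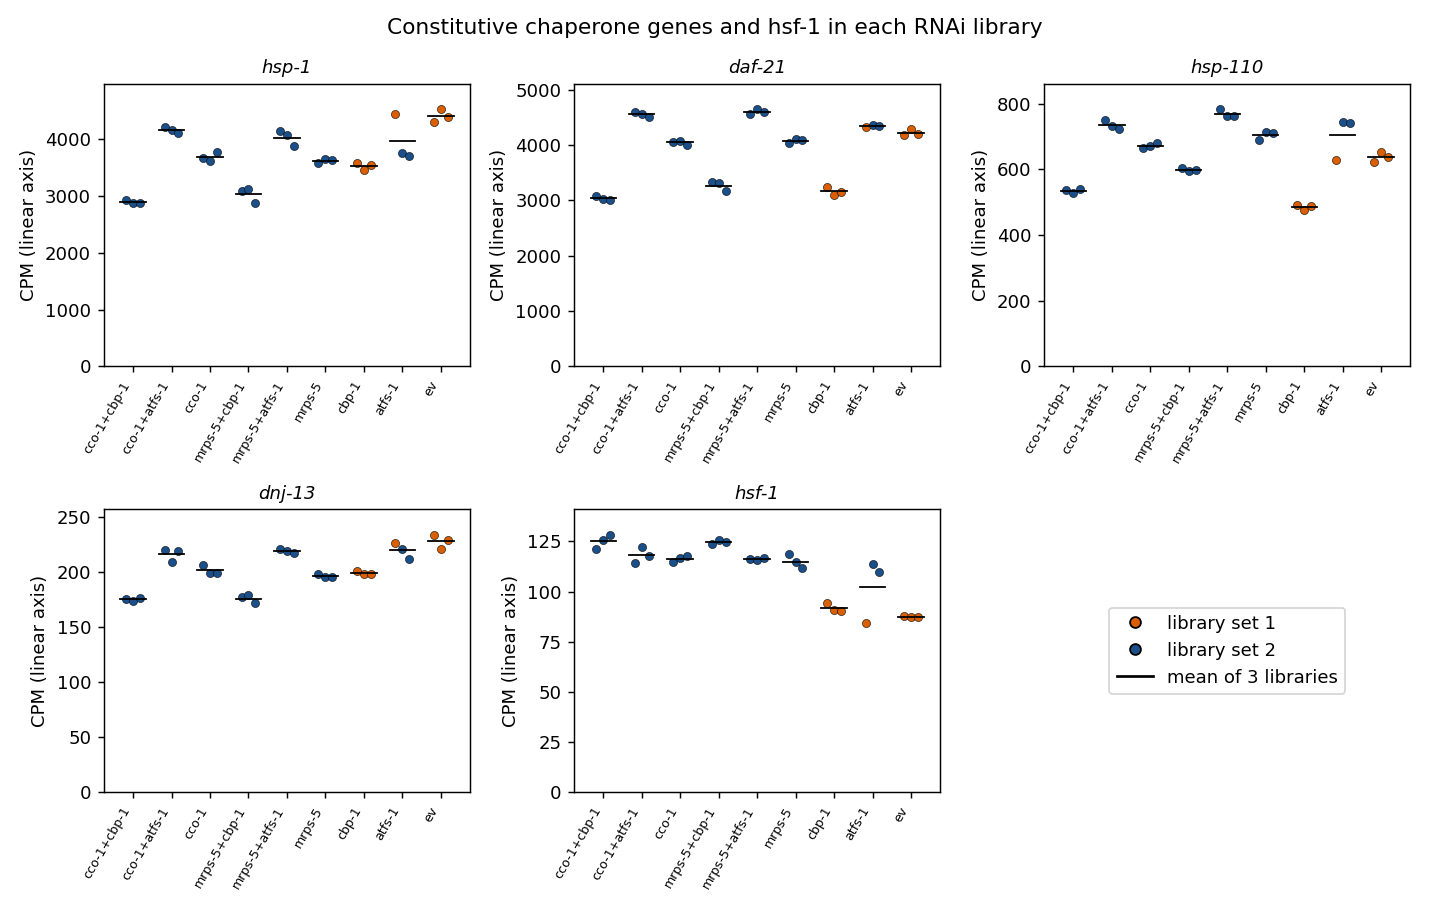
Level in CPM on a linear axis from 0 of the 4 constitutive chaperone genes and hsf-1 in each of 27 libraries, with RNAi groups along the horizontal axis. Points are libraries, coloured by library set, and lines are the means of 3 libraries. daf-21 lies at 3007 to 3332 CPM in the 9 libraries with the cbp-1 clone and at 4009 to 4646 CPM in the other 18 libraries, and the first library labelled atfs-1 has the lowest hsf-1 value, 84.1 CPM.

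hsf-1 itself, at I:11953507-11963085, did not follow the inducible genes. It had 114, 122 and 118 CPM in worms labelled cco-1+atfs-1, against 115, 117 and 118 CPM in cco-1 worms, and the groups overlapped. Its log2 change was 0.02 (95% interval -0.10 to 0.14; edgeR adjusted p = 0.884). In worms labelled mrps-5+atfs-1 it changed by 0.02 (-0.10 to 0.14; edgeR adjusted p = 0.908). Against ev it was higher by 0.41 ± 0.06 in cco-1 worms (edgeR adjusted p = 7.48e-06) and by 0.39 ± 0.06 in mrps-5 worms (edgeR adjusted p = 2.31e-05). With the set term these were 0.00 ± 0.06 and -0.02 ± 0.06 and neither was called. Within the group labelled atfs-1, hsf-1 had 84.1 CPM in the library of set 1 and 114 and 109.96 CPM in the libraries of set 2. The RNA level of hsf-1 says nothing of the activity of its protein.

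The order of the groups differed between the members. For hsp-16.2 it ran, from the highest mean, worms labelled cco-1+atfs-1, labelled mrps-5+atfs-1, cco-1, cco-1+cbp-1, labelled atfs-1, mrps-5, mrps-5+cbp-1, cbp-1 and ev. Neighbours in that order did not overlap down to mrps-5 and mrps-5+cbp-1, while mrps-5+cbp-1, cbp-1 and ev overlapped. hsp-16.48 had the same first 2 groups, with cco-1+cbp-1 next, then cco-1 and cbp-1, whose libraries overlapped. hsp-1 and dnj-13 had their highest means in ev worms and their lowest in cco-1+cbp-1 worms, whose libraries overlapped those of mrps-5+cbp-1 worms for both genes. The ev libraries stood apart from the next group for hsp-1 but overlapped those labelled atfs-1 for dnj-13. The hsf-1 mean was highest in cco-1+cbp-1 worms, which overlapped mrps-5+cbp-1 worms, and lowest in ev worms, with no overlap with the next group. These orders mix the library sets, with ev and cbp-1 worms in set 1. The first library labelled atfs-1, also of set 1, had 84.1 CPM of hsf-1, below the 87.3 to 87.8 CPM of the ev libraries. For hsp-1 it had 4433 CPM, within the 4302 to 4520 CPM of the ev libraries.

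Across the 9 group means, Pearson's r of log2 CPM among the 4 inducible genes other than F44E5.4 lay between 0.908 and 0.996, the highest being that of hsp-16.2 and hsp-16.41. Between hsf-1 and hsp-16.2 it was 0.42. These correlations describe 9 points that share libraries and scaling. Outside the members, the group means most like those of hsp-16.2 were those of M04C3.1 (r = 0.963), lap-1 (0.955), let-756 (0.942), sdz-35 (0.942) and fbxa-55 (0.940) among 2747 genes. let-756 encodes a fibroblast growth factor and lap-1 a leucine aminopeptidase.

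Other cytosolic folding genes moved by small steps. All 8 subunit genes of the chaperonin TRiC, which folds actin and tubulin, rose in worms labelled cco-1+atfs-1 against cco-1 worms, with a median log2 change of 0.19, and all 8 rose in worms labelled mrps-5+atfs-1 against mrps-5 worms, with a median of 0.16. cct-5 changed by 0.25 ± 0.03 and 0.18 ± 0.03 in these arms. All 8 fell in cco-1+cbp-1 worms (median -0.33), in mrps-5+cbp-1 worms (median -0.25) and in cbp-1 worms (median -0.32), each against its own control. Over all genes the median was between -0.02 and 0.02 in these 5 comparisons.

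Of 8 partners of Hsp90, 5 rose in worms labelled cco-1+atfs-1 and 5 in worms labelled mrps-5+atfs-1, with 0 lower in each. The kinase cochaperone gene cdc-37 rose by 0.29 and 0.17, and sti-1, whose protein links Hsp70 and Hsp90, rose by 0.34 and 0.28. With the cbp-1 clone 6, 5 and 6 of these 8 fell in cco-1, mrps-5 and ev worms. Of the 6 prefoldin genes, which pass proteins to TRiC, 4 and 5 rose with the clone labelled atfs-1, and 3, 2 and 6 fell with the cbp-1 clone in cco-1, mrps-5 and ev worms. The shares of all genes called in these comparisons are those given above.

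**Figure D5:**
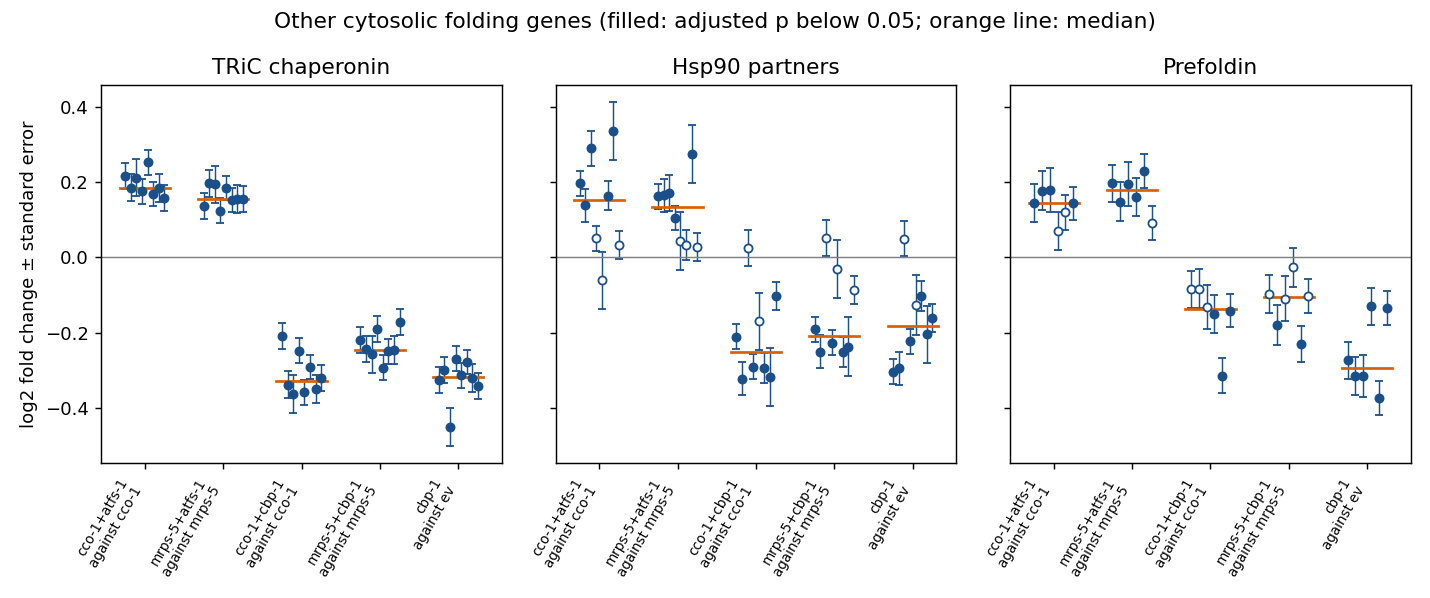
Log2 fold change with its standard error for the genes of the TRiC chaperonin, of Hsp90 partners and of prefoldin in 5 comparisons, 3 libraries per group. Filled points passed the test at an adjusted p below 0.05 and orange lines are medians. The 8 TRiC genes lie above 0 where the clone labelled atfs-1 was added (medians 0.19 and 0.16) and below 0 with the cbp-1 clone.

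Among 10 partners of Hsp70 and Hsp40 that were tested, 5 rose and 0 fell in worms labelled cco-1+atfs-1, and 4 rose and 1 fell in worms labelled mrps-5+atfs-1. aip-1, an arsenite-inducible gene, rose by 0.37 and 0.39. unc-23, a gene of the BAG family of Hsp70 regulators, rose in worms labelled cco-1+atfs-1 and mrps-5+atfs-1 (0.30 and 0.35) and with the cbp-1 clone in cco-1, mrps-5 and ev worms (0.76, 0.81 and 0.87). With the cbp-1 clone 3 of these genes rose and 3 fell in each background. dnj-19 and dnj-12, which encode J-domain proteins, fell by 0.28 and 0.20 in cco-1+cbp-1 worms.

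Of 10 further small heat shock genes tested, hsp-17 stood out. It averaged 309 CPM in worms labelled cco-1+atfs-1, 139 in worms labelled mrps-5+atfs-1, 59.1 in cco-1+cbp-1 worms and 22.9 in mrps-5+cbp-1 worms. In cco-1 worms it averaged 159 CPM and in mrps-5 worms 43.8, against 13.2 CPM in ev worms. It rose by 0.96 and 1.66 with the clone labelled atfs-1 and fell by 1.42 and 0.94 with the cbp-1 clone in the cco-1 and mrps-5 arms, all called. Against ev worms it rose by 3.58 in worms on cco-1 and by 1.72 in those on mrps-5, and by 3.24 and 1.39 with the set term. Beside hsp-17, 1 gene (hsp-43, by 0.18) rose in worms labelled cco-1+atfs-1 and 0 in worms labelled mrps-5+atfs-1.

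Of 5 genes known to act on HSF-1, edgeR's quasi-likelihood test without the set term called 0 with the clone labelled atfs-1 in either arm. At an unadjusted p below 0.05 there were 0 in the cco-1 arm and 1 in the mrps-5 arm, and DESeq2 called 0 in each. hsb-1, which encodes an HSF-1 binding inhibitor, changed by 0.04 in the cco-1 arm and by 0.14 in the mrps-5 arm (edgeR adjusted p = 0.685 and 0.0649). With the set term hsb-1 was called higher in the mrps-5 arm, at 0.14 (edgeR adjusted p = 0.0172; 21.2% of all genes called). Against ev worms hsb-1 changed by -0.21 and -0.27 in cco-1 and mrps-5 worms, both called. With the set term these were 0.00 and -0.06, neither called. The cbp-1 clone went with higher akt-1 in cco-1, mrps-5 and ev worms, by 0.12, 0.18 and 0.16, all called. Of all genes 47.2%, 42.8% and 58.7% were called there. In mrps-5+cbp-1 worms sir-2.1 and hsb-1 were also called higher, by 0.18 and 0.14. The mitochondrial chaperones went against the cytosolic genes in the mixtures labelled with atfs-1, with 4 of 5 lower in each arm (medians -0.45 and -0.34). hsp-6 fell by 0.45 and 0.34. With the cbp-1 clone their summed level was lower too. It was 1362 to 1391 CPM in cco-1+cbp-1 worms, against 2021 to 2049 CPM in cco-1 worms. In mrps-5+cbp-1 worms it was 1432 to 1511 CPM, against 2101 to 2125 CPM in mrps-5 worms. In cbp-1 worms it was 977 to 1009 CPM, against 1256 to 1329 CPM in ev worms. Of 8 chaperone genes of the endoplasmic reticulum, 7 and 5 rose with the clone labelled atfs-1, for example hsp-3 by 0.21 and 0.17, and 0 fell.

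Tissue markers also moved in the mixtures labelled with atfs-1, and their part in the changes of the heat shock genes was not tested. Of 5 intestine markers 2 rose and 2 fell in each arm. In the cco-1 and mrps-5 arms ges-1 changed by -1.86 and -0.99 and ifb-2 by -0.47 and -0.53. In the same arms act-5 changed by 0.54 and 0.29 and elt-2 by 0.36 and 0.21. The summed level of the 5 markers, which mixes these directions, was 1131 to 1166 CPM in worms labelled cco-1+atfs-1, against 895 to 956 CPM in cco-1 worms. In the mrps-5 arm the sums were 834 to 921 CPM in worms labelled mrps-5+atfs-1, against 806 to 839 CPM in mrps-5 worms. Of 6 sperm markers 4 fell in each arm, with sums of 105 to 117 CPM in worms labelled cco-1+atfs-1 against 133 to 142 CPM in cco-1 worms. Of 5 body wall muscle markers 2 and 3 fell, of 5 neuron markers 1 and 0, of 5 hypodermis markers 1 and 0, and of 6 germline markers 1 and 0 fell in the cco-1 and mrps-5 arms, with 0 higher. Of 7 oocyte and early embryo markers edgeR called 0 in each arm, DESeq2 called 2 and 1, and 2 and 2 had an unadjusted p below 0.05.

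With the cbp-1 clone the marker lists moved more, and so did all genes. The shares of all genes called were 47.2%, 42.8% and 58.7% in the cco-1, mrps-5 and ev backgrounds. With the clone labelled atfs-1 they were 20.4% and 16.8% in the cco-1 and mrps-5 arms. All 6 yolk genes fell in cco-1+cbp-1, mrps-5+cbp-1 and cbp-1 worms, each against its own control. Their summed level was 15873 to 16242 CPM in cco-1+cbp-1 worms, against 28113 to 30921 CPM in cco-1 worms. Intestine markers summed to 586 to 617 CPM in cco-1+cbp-1 worms, against 895 to 956 CPM in cco-1 worms. Of these 5 markers ges-1, ifb-2 and act-5 fell there and elt-7 rose, by 0.62 ± 0.09 (edgeR adjusted p = 2.39e-07). Of 5 neuron markers 2 rose and 1 fell in each background, with rab-3 higher by 0.30 and snb-1 by 0.20 and unc-10 at -0.22 in cco-1+cbp-1 worms. Body wall muscle markers fell in number 4, 5 and 4 of 5 with the cbp-1 clone in cco-1, mrps-5 and ev worms. Of 6 sperm markers 4 and 2 fell in the cco-1 and mrps-5 arms, while 3 rose in cbp-1 worms against ev worms. All 6 yolk genes, which adults express in the intestine, were also higher in mrps-5 worms than in cco-1 worms. The part of these shifts in the falls of hsp-16.2 and hsp-16.41 was not tested.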

How the data were processed

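Poly(A) RNA of whole worms was sequenced in 27 libraries, 3 for each of 9 RNAi groups, grouped by the deposited labels. The authors deposited raw read counts per gene, and the submitters' processing notes name STAR 2.6.0a, HTSeq 0.10.0 and the build WBcel235, with the strand setting not given in the sources used here. Summary lines of the count files (8.71% to 17.0% of reads) were left out. Genes passing filterByExpr with a minimum count of 10 (16435 of 46738) were fitted together in edgeR 4.0.16 (R 4.3.3) with TMM scaling and the robust quasi-likelihood F test, with a call where the p adjusted over all genes by Benjamini-Hochberg was under 0.05. Standard errors were the log2 change divided by the square root of F, and 95% intervals used the normal quantile. CPM are counts scaled to the library's total gene count multiplied by its TMM factor.

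Library sets came from 379 genes with at least 10 CPM that differed by more than 0.5 on the log2 scale between the first library labelled atfs-1 and the other two. Alternatives were the set term, DESeq2 1.42.0, upper-quartile or RLE scaling, leaving out the filter or asking for 5 CPM in 3 libraries, fitting only the groups compared, the replicate number as a block, and leaving out each library. Of 21 comparisons, 4 were added after values had been seen: the interactions with atfs-1, and the mixtures labelled with atfs-1 against its libraries 2 and 3. The fits were tested on simulated data that held no library sets and changed only genes with ample reads. That test does not cover members with few reads or the split into sets.

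The members and the other lists were chosen with earlier results of these data known. Beside the members, the text names from every list at most 4 genes, those of lowest adjusted p, and the 5 genes most like hsp-16.2. Positions come from the Ensembl annotation of WBcel235. Each inducible gene other than F44E5.4 had at least 10 reads in all 27 libraries, and CPM near 1 rests on few reads.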

Additional observations from a re-analysis of the deposited data

Results flagged for a closer look

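Several effects differed between the cco-1 and mrps-5 arms by a test of the difference itself, with 3 libraries in each of 4 groups and edgeR adjusted p over all genes. The log2 change of hsp-16.2 with the cbp-1 clone was -2.14 in the cco-1 arm and -0.45 in the mrps-5 arm, a difference of -1.69. For hsp-16.41 the changes were -2.07 and -0.42, a difference of -1.65. The edgeR adjusted p was 6.11e-07 for hsp-16.2 and 3.18e-05 for hsp-16.41. In mrps-5 worms these genes averaged 1.59 and 1.50 CPM, against 0.942 and 1.03 CPM in ev worms. In cco-1 worms they averaged 15.2 and 11.7 CPM. The part of these starting levels in the differences was not tested.

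With the clone labelled atfs-1, hsp-16.2 changed by 3.56 in the cco-1 arm and 5.72 in the mrps-5 arm, a difference of -2.17. The same difference was -1.57 for hsp-16.41. Both were higher in cco-1 worms than in mrps-5 worms, and in CPM worms labelled cco-1+atfs-1 were higher than worms labelled mrps-5+atfs-1 for both. hsp-70 went the other way, with a change of 4.41 in the cco-1 arm, 3.21 in the mrps-5 arm and a difference of 1.19. All 6 libraries of the mixtures labelled with atfs-1 were above all 6 libraries of cco-1 and mrps-5 worms for these 3 genes.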

How the results depend on the processing

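The rises of hsp-16.2, hsp-16.41, hsp-16.48 and hsp-70 in the mixtures labelled with atfs-1 kept their direction and call under each alternative. With the library-set term, the number of genes called was 2691 in cco-1 against ev (7449 without it), 1602 in mrps-5 against ev (6225) and 54 in the group labelled atfs-1 against ev (1772), where fitting only the groups compared gave 28. It was 1824 for the interaction of cco-1 and atfs-1 (2801) and 1295 for that of mrps-5 and atfs-1 (2258), where only the groups compared gave 1306. Members called with the term were 2 in mrps-5 against ev (6) and 2 in the group labelled atfs-1 against ev (6), where only the groups compared also gave 2. The term reversed hsp-110 in cco-1 (-0.17) and mrps-5 (-0.10), hsf-1 in mrps-5 (-0.0160), and hsp-1 (0.00978), hsp-110 (-0.0228) and hsf-1 (-0.0576) in the group labelled atfs-1, each against ev, and hsp-110 in both interactions with atfs-1 (0.15 and 0.15). For the interaction of mrps-5 and cbp-1, 1 member was called, against 2 with the set term, DESeq2, RLE scaling or only the groups compared, and 0 without a filter or with the stricter filter. The cause of these shifts was not tested.

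Leaving out 1 library gave 3 to 6 members and 155 to 4874 genes called in the group labelled atfs-1 against ev, with 4874 without atfs-1 replicate 1 and 155 without atfs-1 replicate 2. It gave 0 to 2 members for the interaction of mrps-5 and cbp-1, and 2085 to 5128 and 1566 to 4827 genes for the interactions of cco-1 and mrps-5 with atfs-1, the highest without atfs-1 replicate 1. Against atfs-1 replicates 2 and 3, it gave 4 to 7 members in cco-1 worms and 1 to 4 in mrps-5 worms (5 with all libraries), the lowest without atfs-1 replicate 2, and 2074 to 3217 genes in worms labelled mrps-5+atfs-1. Of the member values, F44E5.4 included, 1497 kept their side of the threshold, 74 lost it, 9 gained it and 0 reversed. Replicate numbers did not pair the libraries (median correlation -0.005 for the same number), and with the replicate block 209 of 210 such values kept their call. The exception was hsp-16.48 in mrps-5 worms against atfs-1 replicates 2 and 3.

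Among the called genes, upper-quartile scaling put 56.1% higher in mrps-5+cbp-1 against mrps-5 (45.3% with TMM), 58.5% in mrps-5+cbp-1 against the mixture labelled mrps-5+atfs-1 (47.5%) and 61.8% in the group labelled atfs-1 against ev (51.4%, and 33.3% with the set term). DESeq2 put 44.9% higher in the interaction of mrps-5 and cbp-1 (34.4%). Set 1 held the same 7 libraries with an axis of 17 genes. F44E5.4, with at most 24 reads, is limited by depth.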
